A study of Mus musculus with 10 samples.

Results

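The mitochondrial ribosomal protein genes were taken as all genes whose symbol is Mrpl or Mrps followed by a number and at most 1 letter. This gave 78 of the 54532 genes in the table, 49 named Mrpl and 29 named Mrps. Of these, 77 reached a mean of 10 normalized counts over the libraries and were tested. The exception, Mrpl53, was listed at 0 in every library.

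RNA was sequenced from primary peritoneal macrophages of mice, the resident phagocytes of the abdominal cavity. The groups were young wild type (4 libraries, replicates A, B, C and E), aged wild type (3 libraries, replicates 3, 4 and 6) and aged Trem1-/- (3 libraries, replicates 1, 2 and 3). Trem1 encodes an activating receptor of myeloid cells. The labels give no age in months, sex, batch, isolation step or young Trem1-/- group, and do not say that libraries came from separate mice, so p-values reflect no more than how far these samples vary, and that variation may be technical. Trem1 itself had 23, 132 and 12 reads in the 3 libraries labelled Trem1-/-, against 10 to 21 in young and 14 to 50 in aged wild type. The deposited counts therefore did not separate the libraries labelled Trem1-/- from the others by this gene, and the deleted stretch is not given. Directions below rest on the labels.

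Recovered reads ran from 2663744 to 5603498 per library, of which 3272 to 7267 lay in the 78 genes. A gene of the set had a median of 53 reads in a library (2 to 268 among those tested). The summed level of 10 peritoneal macrophage markers, all of them detected, was 74086 to 81017 normalized counts in young wild type, 24257 to 38071 in aged wild type and 63221 to 82052 in libraries labelled Trem1-/-. In aged wild type, 9 of 10 of these markers were lower than in young, while 7 of 7 B cell markers and 6 of 6 tested T and NK cell markers were higher. The summed B cell level was 6600 to 10102 there, against 1189 to 2704 in young and 2531 to 5898 in libraries labelled Trem1-/-. Aged wild type replicate 4 also held 23701 normalized counts of 6 erythroid markers, against 9.30 to 751 in the other libraries. Markers of 8 dividing-cell genes summed to 1514 to 4210 in young, 395 to 848 in aged wild type and 717 to 1002 in libraries labelled Trem1-/-. The long non-coding RNA gene Gm26917 took 8.38% to 12.9% of reads in aged wild type and at most 5.70% in the other groups. These differences move with the groups compared below, and their part in the results was not tested. In such bulk samples, fewer cells of a type and less RNA per cell cannot be told apart.

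Mitochondrial ribosomes translate the few messenger RNAs that mitochondrial DNA encodes, all of which specify subunits of the respiratory chain and ATP synthase. Their ribosomal RNAs are made from mitochondrial DNA, whereas every protein is encoded in the nucleus, made in the cytosol and imported. Some of these proteins have counterparts in bacterial ribosomes and others occur only in mitochondria. The small subunit binds the messenger, and the large subunit forms the peptide bond and sits at the inner membrane, where new chains are inserted. The genes are expressed in nearly all cells with mitochondria. Names do not always give the subunit: Mrps18a and Mrps30 belong to the large subunit, and Mrps36 belongs to the 2-oxoglutarate dehydrogenase complex. Mrpl58 retains a peptidyl-tRNA hydrolase that releases stalled chains.

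The promoter windows of 5 genes that passed a test below are shown because genes of this kind are known targets of the ETS factor GABP, of NRF1 and of YY1. Each window runs from 250 bases before to 50 bases after the transcription start (RefSeq, GRCm38.p6), 5′ to 3′ on the gene's strand. Capitals mark the letters CCGGAAG (an ETS core), CGCATGCG (the core of the NRF1 site) and AANATGGC (a YY1 site), each searched on both strands. Mrpl33 is at chr5:31613701-31614000 on the plus strand, Mrps25 at chr6:92183974-92184273 on the minus strand, Mrpl51 at chr6:125191950-125192249 on the plus strand, Mrpl17 at chr7:105811038-105811337 on the minus strand and Mrps10 at chr17:47368947-47369246 on the plus strand.
Mrpl33: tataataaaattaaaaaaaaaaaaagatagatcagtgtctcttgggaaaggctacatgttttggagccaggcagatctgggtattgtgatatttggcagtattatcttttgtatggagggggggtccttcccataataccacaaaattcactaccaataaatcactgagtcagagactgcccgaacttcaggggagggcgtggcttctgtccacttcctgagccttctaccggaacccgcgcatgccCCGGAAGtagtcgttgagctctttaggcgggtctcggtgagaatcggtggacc
Mrps25: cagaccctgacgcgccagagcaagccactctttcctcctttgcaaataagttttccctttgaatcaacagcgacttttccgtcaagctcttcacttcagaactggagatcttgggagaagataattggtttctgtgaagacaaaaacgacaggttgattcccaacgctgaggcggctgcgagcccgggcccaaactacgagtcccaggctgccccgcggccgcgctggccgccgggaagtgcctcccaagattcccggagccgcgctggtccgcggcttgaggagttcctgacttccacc
Mrpl51: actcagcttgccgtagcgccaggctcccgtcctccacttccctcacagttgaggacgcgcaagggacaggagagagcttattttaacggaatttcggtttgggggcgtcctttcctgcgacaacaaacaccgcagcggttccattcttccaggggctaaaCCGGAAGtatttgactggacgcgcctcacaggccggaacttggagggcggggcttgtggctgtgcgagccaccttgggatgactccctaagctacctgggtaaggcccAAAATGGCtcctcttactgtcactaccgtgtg
Mrpl17: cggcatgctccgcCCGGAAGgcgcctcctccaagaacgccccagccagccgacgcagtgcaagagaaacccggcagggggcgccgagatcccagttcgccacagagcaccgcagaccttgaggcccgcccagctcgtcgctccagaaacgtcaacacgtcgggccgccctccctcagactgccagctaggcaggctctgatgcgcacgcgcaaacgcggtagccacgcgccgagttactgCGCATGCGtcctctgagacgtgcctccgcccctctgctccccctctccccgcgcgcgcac
Mrps10: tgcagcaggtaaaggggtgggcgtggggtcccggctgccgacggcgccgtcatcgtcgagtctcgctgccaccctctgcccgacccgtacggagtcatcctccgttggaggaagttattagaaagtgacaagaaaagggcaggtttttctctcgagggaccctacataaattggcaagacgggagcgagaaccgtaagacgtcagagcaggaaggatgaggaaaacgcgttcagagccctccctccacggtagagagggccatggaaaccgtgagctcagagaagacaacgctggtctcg
The Mrpl33 window holds 1 ETS core. The Mrpl51 window holds an ETS core and a YY1 site, and the Mrpl17 window an ETS core and an NRF1 core. The windows of Mrps25 and Mrps10 hold none of these letters.

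RefSeq windows were matched for 69 of the 78 genes. Those without one were Mrpl13, Mrpl15, Mrpl19, Mrpl38, Mrpl4, Mrpl54, Mrps28, Mrps34 and Mrps35. The ETS core was in 26 of the 69 (37.7%), beside 9.93% of all 27025 genes with a window and 21.7% of the tested genes with one. The YY1 letters were in 21 (30.4%, beside 6.96% and 10.7%) and the NRF1 core in 7 (10.1%, beside 2.07% and 4.56%). Of the 69, 42 (60.9%) held at least 1 of these motifs, beside 17.3% and 32.8%. A match is a description of letters, not of binding.

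The genes also lie close to other genes. A protein-coding start on the opposite strand within 1 kb was annotated for 33 of the 78 (42.3%), beside 2379 of 21924 protein-coding genes (10.9%). That background includes genes not tested here, and the share over the tested genes alone was not computed. Mrpl46 and Mrps11 are such a pair with each other, with starts 412 bases apart. Of the tested genes of the set, 9 have at least 20% of their exon sequence overlapped by another gene and 3 share at least 20% of their 50-base words with one. The counts of these genes are uncertain, since counting by strand is not stated. Mrpl53, listed at 0, has 88.0% of its exon sequence overlapped by Ccdc142os and Gm42688 (chr6:83109040-83109939). Its 0 therefore cannot be read as absence of expression, and the cause of the 0 was not tested.

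Means over the 10 libraries ran from 11.2 normalized counts for Mrps34 to 162 for Mrpl52, with a median of 55.0, beside a median of 88.3 over all genes tested. The 6 highest were Mrpl52, Mrps15, Mrpl3, Mrpl30, Mrpl17 and Mrpl43, and the 4 lowest Mrps34, Mrps18c, Mrps11 and Mrps18b. Of these, Mrps34, Mrpl43, Mrps18b and Mrps18c have 77.8%, 33.4%, 30.5% and 23.2% of their exon sequence overlapped, so their levels are uncertain. Per kb of annotated exon, which, overlap aside, allows genes to be compared, the mean level was 146 for Mrpl52, 89.6 for Mrps15 and 73.6 for Mrpl54. The median gene stood at 20.8 per kb and Mrpl47, with 24.2% of its exon sequence overlapped, was lowest at 5.07. Within groups the median coefficient of variation was 16.6% in young wild type, 15.5% in aged wild type and 15.2% in libraries labelled Trem1-/-. The true coefficient set by counting error has a median of 13.1%, 14.6% and 13.6%. The median ratio of a gene's variance to its counting variance was 1.62 in young wild type, 1.13 in aged wild type and 1.23 in libraries labelled Trem1-/-. Medians of variances estimated from 3 or 4 libraries tend to fall below the true values, and more so with 3. Both measures therefore understate the spread beyond counting error, and they do not rank groups that differ in size.

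Summed over the set, the level was 4355, 4475, 4945 and 5144 normalized counts in young replicates A, B, C and E. Aged wild type had 4188 (replicate 3), 4585 (replicate 4) and 4196 (replicate 6), and the libraries labelled Trem1-/- had 4440, 4393 and 4266 (replicates 1 to 3). Young replicates C and E were the highest 2 libraries, while A and B lay within the range of the aged libraries. In C and E, 57 and 56 of 77 genes stood above their own mean over the libraries, against 32 and 37 in A and B. The dividing-cell markers were also highest in these young libraries, at 2414 in C and 4210 in E, and their part in the summed level was not tested. The mean of the sums was 4730 ± 376 (SD, n = 4) in young wild type, 4323 ± 227 (SD, n = 3) in aged wild type and 4366 ± 90.1 (SD, n = 3) in libraries labelled Trem1-/-. The ranges of the 3 groups overlapped.

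**Figure D1:**
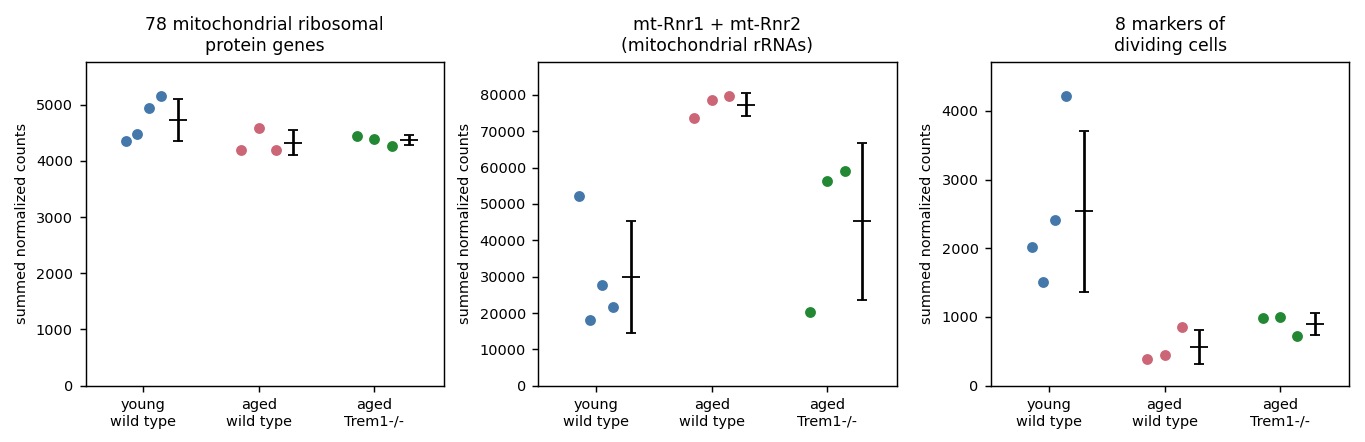
Summed normalized counts per library (points) with mean and SD (black) for the 78 genes, for the mitochondrially encoded ribosomal RNAs mt-Rnr1 and mt-Rnr2, and for 8 markers of dividing cells, by group. The sums of the 78 genes overlap between groups (4188 to 5144 over all libraries), while the ribosomal RNAs of aged wild type (73659 to 79581) lie above all other libraries.

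Aged wild type was compared with young wild type to ask which of these genes differed with age. Of the 77 tested, 7 were lower in aged wild type and 0 were higher. They were Mrps28, Mrpl42, Mrpl33, Mrpl51, Mrps25, Mrpl17 and Mrps15, with log2 fold changes from -0.88 to -0.51. Over all 11506 genes, 19.0% were lower and 14.3% higher. Among the 7395 genes whose mean lay between the lowest and highest of the set, 14.1% were lower and 13.5% higher. Both the 7 lower (9.09% of 77) and the 0 higher genes were fewer than these background shares. Without adjustment 12 of 77 had p under 0.05, beside 5033 of 11506. Every aged wild-type library lay below every young one for 8 of 77 genes, beside 2525 of 11506. For 3 of 77 every one lay above, beside 2112 of 11506. The median log2 fold change was -0.09, beside -0.02 over all genes tested, with 27 positive and 50 negative values. The 95% interval of the difference lay within a 2-fold change in either direction for 69 of 77 genes and within 1.5-fold for 32.

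Mrpl33, the large subunit counterpart of bacterial L33, had 74.1, 88.7, 73.3 and 74.4 normalized counts in young replicates A, B, C and E. Aged wild type had 52.5, 52.4 and 48.5 (replicates 3, 4 and 6), and the libraries labelled Trem1-/- had 67.4, 72.9 and 75.7 (replicates 1 to 3). Later values keep this order. Every aged wild-type library was below every other library. The log2 fold change with age was -0.59 (SE 0.13, limma adjusted p = 0.00557), and it passed under all 16 alternatives.

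Mrps25, a small subunit protein without a bacterial counterpart, had 97.6, 99.8, 99.7 and 128 normalized counts in young wild type. It had 74.2, 73.1 and 64.7 in aged wild type and 101, 91.3 and 114 in libraries labelled Trem1-/-. Here too the aged wild-type libraries lay below all others. Over all 11506 genes tested, they lay wholly below young wild type for 2525 and wholly below libraries labelled Trem1-/- for 2227. The log2 fold change with age was -0.57 (SE 0.14, limma adjusted p = 0.00902), and it also passed under all 16 alternatives. Of its exon sequence, 69.8% is overlapped by Nr2c2, a nuclear receptor gene. Nr2c2 itself had a log2 fold change of 0.00 (SE 0.11, limma adjusted p = 0.998) between the same groups, with means of 260 ± 25.5 (SD, n = 4) and 260 ± 7.07 (SD, n = 3) normalized counts.

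Mrpl51, a large subunit protein found only in mitochondrial ribosomes, had 53.2, 62.2, 64.8 and 67.4 normalized counts in young and 34.6, 48.0 and 41.3 in aged wild type. The groups did not overlap (log2 fold change -0.58, SE 0.16, limma adjusted p = 0.0160), but the call was lost without aged wild type replicate 3 (adjusted p = 0.0676) and with DESeq2. Mrps28, a small subunit protein, had the lowest log2 fold change at -0.88 (SE 0.25, limma adjusted p = 0.0194). It had 33.1, 32.0, 42.0 and 45.3 normalized counts in young against 23.0, 22.9 and 15.3 in aged wild type, which is 17 to 52 reads per library. The groups did not overlap, but the call was lost without young C, young E or aged wild type 6 (adjusted p up to 0.0831).

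The other 3 calls were less stable. Mrps15, a counterpart of bacterial S15 on the platform of the small subunit, had 163, 149, 175 and 189 normalized counts in young and 84.5, 143 and 137 in aged wild type (log2 fold change -0.51, SE 0.17, limma adjusted p = 0.0395). The groups did not overlap. Its lowest aged library lay far from the other 2, and without that library (replicate 3), or without young A, C or E, the adjusted p was above the threshold (up to 0.147). Mrpl17, which lies near the exit of the peptide tunnel, had 106, 105, 141 and 146 in young and 70.4, 107 and 83.6 in aged wild type (-0.52, SE 0.17, limma adjusted p = 0.0390). Mrpl42, a large subunit protein found only in mitochondrial ribosomes, had 85.4, 97.3, 121 and 163 in young and 71.7, 87.3 and 64.7 in aged wild type (-0.61, SE 0.22, limma adjusted p = 0.0486). In both genes the groups overlapped and young C and E were the high libraries. Both calls were lost without young C, young E, aged wild type 3 or aged wild type 6, and that of Mrpl42 also without young B (adjusted p up to 0.157 for each gene). Leaving out young C, young E or aged wild type 3 reduced the number of lower genes from 7 to 3, leaving out aged wild type 6 to 4, and leaving out aged wild type 4 raised it to 10.

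In the authors' deposited table, 3 of 77 were lower in aged than in young wild type and 0 higher, beside 11.2% lower and 10.6% higher of the 17359 genes with an adjusted p there. These were Mrps28 (adjusted p = 0.0398), Mrpl33 (0.0170) and Mrps25 (0.0150). The other 4 had adjusted p of 0.0582 to 0.0718 in the authors' deposited table.

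**Figure D2:**
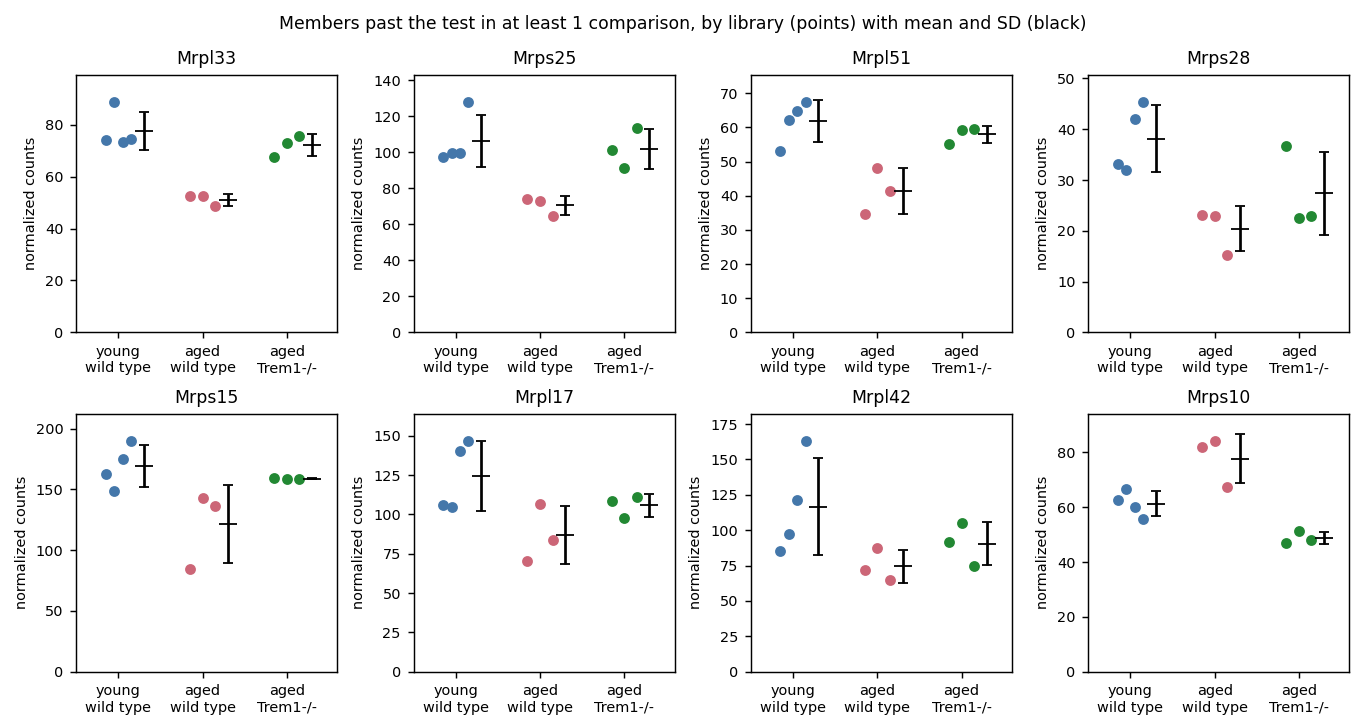
Normalized counts per library (points) with mean and SD (black) for the 8 genes that passed the limma test in at least 1 comparison, by group. Aged wild type lies below all other libraries for Mrpl33 and Mrps25, and above the libraries labelled Trem1-/- for Mrps10 (67.4 to 84.0 against 47.0 to 51.3).

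By place in the ribosome, 3 of 26 small subunit genes and 4 of 50 tested large subunit genes were lower in aged wild type, with medians of -0.07 and -0.11. Genes with a bacterial counterpart (3 of 44 lower, median -0.08) and genes found only in mitochondrial ribosomes (3 of 30 lower, median -0.11) had like counts. Mrps28 was in neither of these lists. The platform of the small subunit had a median of -0.47 over 5 genes, of which Mrps15 passed. The head had a median of 0.24 over 5 genes with 0 called, Mrps9 and Mrps10 having values of 0.33 and 0.34 (limma adjusted p = 0.0672 and 0.0866). In these 2 genes, chosen after their values were seen, every aged wild-type library was above every young one, as in 2112 of all 11506 genes tested. Of the exit tunnel list only Mrpl17 passed, and none passed in the stalk (4 tested) or the central protuberance (7 tested). These lists are small and the differences between them were not tested. Mrps18a, Mrps30, Mrps36 and Mrpl58, set apart by name or role, had values of -0.17, 0.05, 0.02 and -0.22, none past the test. Mrps18b and Mrps18c, the paralogues of Mrps18a in the small subunit, had 0.49 (limma adjusted p = 0.275) and -0.47 (0.487) at means of 18.4 and 12.3 normalized counts.

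**Figure D3:**
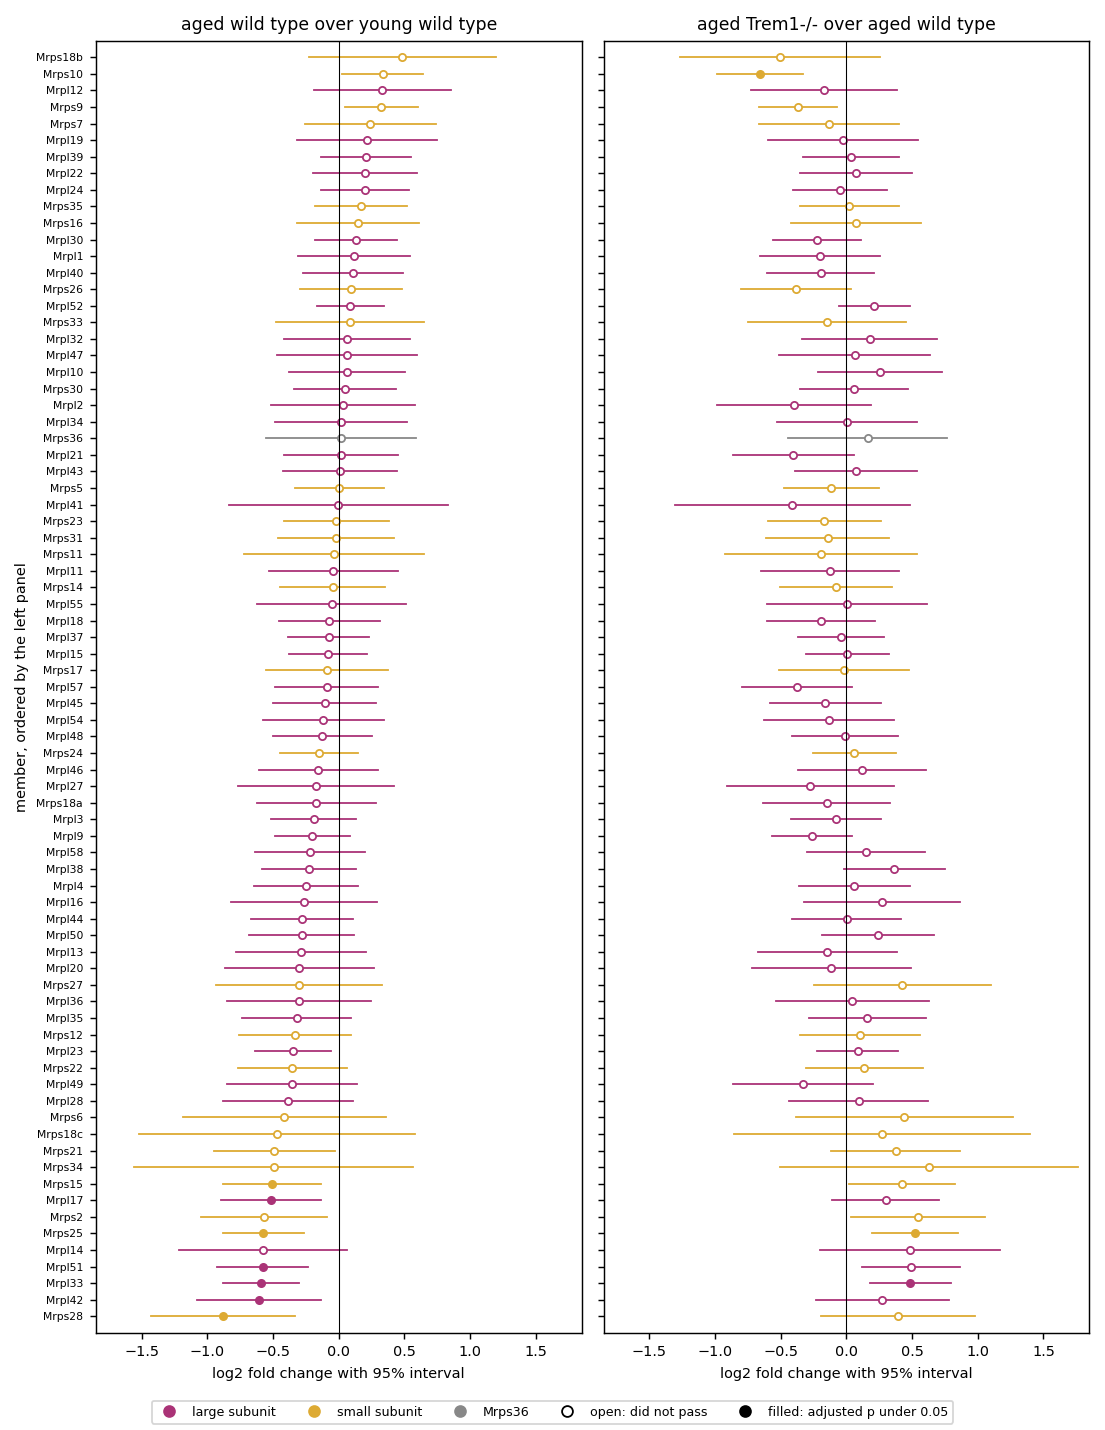
Log2 fold change with its 95% interval (lines) for the 77 tested genes, in aged over young wild type (left, which sets the order) and in libraries labelled aged Trem1-/- over aged wild type (right); filled points passed an adjusted p of 0.05. Filled points are 7 on the left, all below 0, and 3 on the right; both panels share the aged wild-type libraries, so opposite signs are partly built in.

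The libraries labelled aged Trem1-/- were compared with aged wild type to ask what differed with the genotype label. Ages in months are not given, so the groups may also differ in age. Of the 77 genes, 2 were higher (Mrpl33 and Mrps25) and 1 was lower (Mrps10). Over all genes tested 11.5% were higher and 6.82% lower, and 6.07% and 6.60% among the genes with means in the range of the set. For the set of 77, 2 higher genes and 1 lower gene are smaller shares than these. Without adjustment 7 of 77 had p under 0.05, beside 3914 of 11506. Every library labelled Trem1-/- lay above every aged wild-type one for 4 of 77 genes, beside 2227 of 11506. For 3 of 77 every one lay below, beside 1783 of 11506. The median log2 fold change was 0.008, beside 0.019 over all genes tested, and it was negative with DESeq2, with edgeR, without aged wild type 3 and without library 1 labelled Trem1-/- (down to -0.05). The interval lay within a 2-fold change for 69 of 77.

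Mrpl33 had a log2 fold change of 0.49 (SE 0.14, limma adjusted p = 0.0348) and Mrps25 of 0.52 (SE 0.15, limma adjusted p = 0.0344), from the values given above. These comparisons share the aged wild-type libraries with the comparison by age. The call of Mrpl33 was lost without any 1 of 5 libraries, namely aged wild type 3 or 6 or any library labelled Trem1-/- (adjusted p up to 0.0973). That of Mrps25 was lost without aged wild type 3 or 6 or library 1 or 3 labelled Trem1-/- (adjusted p up to 0.106), and was kept without library 2, in which Trem1 had 132 reads. Neither gene passed with DESeq2, with only the groups compared or with a mean filter of 1. The number of higher genes was 0 without aged wild type 3, without aged wild type 6, without library 1 or without library 3 labelled Trem1-/-. It was 1 without library 2 labelled Trem1-/- and 4 without aged wild type 4. The 5 other genes lower with age had positive values from 0.27 (Mrpl42) to 0.49 (Mrpl51), none past the test.

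Mrps10, the counterpart of bacterial S10 in the head of the small subunit, had 62.8, 66.5, 60.0 and 55.8 normalized counts in young wild type. It had 81.9, 84.0 and 67.4 in aged wild type and 47.0, 51.3 and 48.2 in libraries labelled Trem1-/-. The last group lay below both others without overlap. Over all 11506 genes tested, it lay wholly below aged wild type for 1783 and wholly below young wild type for 888. Against aged wild type the log2 fold change was -0.66 (SE 0.15, limma adjusted p = 0.0136), with adjusted p of at most 0.0488 over the 15 alternatives, and against young wild type it was -0.32 (SE 0.14, limma adjusted p = 0.327). Mrps10 is at chr17:47368887-47381417 in GENCODE M21, 851 kb from Trem1, the gene deleted per the labels. The next genes of the set on chromosome 17 are Mrpl2, Mrps18a and Mrpl14 at 1583, 2104 and 2534 kb. They had log2 fold changes of -0.40, -0.15 and 0.48, none past the test. Within 1 Mb of Trem1, 4 of 18 tested genes were lower and 1 was higher in libraries labelled Trem1-/-. Within 5 Mb 9 of 67 were lower and 4 higher. Mrps10 is itself among the lower genes of both counts. Over all genes tested 6.82% were lower and 11.5% higher. Genotype and chromosomal position cannot be told apart for Mrps10 in this design.

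Libraries labelled aged Trem1-/- were also compared with young wild type, groups that differ in age and genotype. By limma, 0 of the 77 genes were higher and 0 lower, beside 0.591% and 0.330% of all genes tested. Unadjusted p was under 0.05 for 5 genes, beside 1654 of 11506, and edgeR and DESeq2 on the recovered reads also called 0 of the set. The median log2 fold change was -0.10, beside 0.009 over all genes tested. The interval of the difference lay within a 2-fold change for 71 of 77 genes. Of the 7 genes lower in aged wild type, Mrpl33, Mrps25, Mrpl51 and Mrps15 had values of -0.10, -0.05, -0.09 and -0.09 here. Mrps28, Mrpl42 and Mrpl17 had -0.48 (95% interval -1.03 to 0.06), -0.33 (-0.81 to 0.14) and -0.22 (-0.60 to 0.16).

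The rest of the mitochondrial translation pathway is given from lists of 5 other ribosome proteins, 25 tested assembly factors, 14 translation factors, 20 aminoacyl-tRNA synthetases, 7 genes of mitochondrial transcription and DNA copying, and 9 regulators. With age, none of the other ribosome proteins (Dap3, Ptcd3, Aurkaip1, Chchd1 and Gadd45gip1) and none of the assembly factors passed, with medians of 0.09 and 0.07. The calls in the other lists were 2 of 14 translation factors, 2 of 20 synthetases, 2 of 7 transcription genes and 1 of 9 regulators. All were higher in aged wild type. Over all genes tested 14.3% were higher, so a few such calls are usual for lists of this size. The lists were not tested against the set or against other genes. The translation factors Gfm2 (log2 fold change 0.44), which recycles ribosomes, and Mtfmt (0.69), which formylates the initiator methionyl-tRNA, were higher. So were the methionyl-tRNA synthetase Mars2 (0.68) and Qrsl1 (1.33), a subunit of the enzyme that forms glutaminyl-tRNA. Polg2 (0.72), an accessory subunit of the mitochondrial DNA polymerase, and Tfam (0.49), which packages mitochondrial DNA and starts its transcription, were higher as well. Among the regulators only Gabpb1, a subunit of GABP, passed (0.72). Gabpa, Nrf1 and Yy1, whose motif letters are described above, had -0.06, 0.36 and -0.24 (limma adjusted p = 0.704, 0.0582 and 0.156).

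Qrsl1 had 34.3, 36.3, 31.2 and 17.4 normalized counts in young wild type, 73.0, 64.4 and 84.5 in aged wild type and 35.8, 25.6 and 39.0 in libraries labelled Trem1-/-. The aged wild-type libraries lay above all others, the reverse of Mrpl33 and Mrps25. Over all 11506 genes tested, they lay wholly above young wild type for 2112 and wholly above libraries labelled Trem1-/- for 1783. Qrsl1 (-1.13) and Polg2 (-1.12) were lower in libraries labelled Trem1-/- than in aged wild type, and the leucyl-tRNA synthetase Lars2 was higher (0.51). No gene of the other ribosome proteins, assembly factors, translation factors or regulators passed in that comparison, and none of these 6 lists had a call against young wild type.

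The RNAs that mitochondrial ribosomes contain and translate are made from mitochondrial DNA, and their values are given here by themselves. Both mitochondrial ribosomal RNAs were higher in aged than in young wild type, by 1.19 for mt-Rnr1 and 1.52 for mt-Rnr2 on the log2 scale. Their summed level was 52205, 18173, 27730 and 21540 normalized counts in young, 73659, 78735 and 79581 in aged wild type and 20322, 56267 and 59058 in libraries labelled Trem1-/-. The aged wild-type libraries lay above all others, and young A stood apart from the other young libraries. Of 13 mitochondrially encoded messenger RNAs, 11 were higher in aged wild type, with a median of 1.03. Aged wild type replicate 4, the library with the erythroid markers, had a summed level of 103067 for these messengers, against 34448 and 38022 in replicates 3 and 6. Without it 6 of 13 were higher and the median was 0.49, and both ribosomal RNAs still passed. Without young A, B, C or E the number of higher messengers was 3, 4, 7 and 4, and without young E or aged wild type 6 only 1 of the 2 ribosomal RNAs passed. In libraries labelled Trem1-/- 5 of 13 messengers were lower than in aged wild type (median -1.07, and -0.52 with 5 lower without replicate 4), and neither ribosomal RNA passed (-0.99 and -0.91, limma adjusted p = 0.0602 and 0.191). Without library 1, library 2 or library 3 labelled Trem1-/-, the number of lower messengers was 0, 1 and 2.

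**Figure D4:**
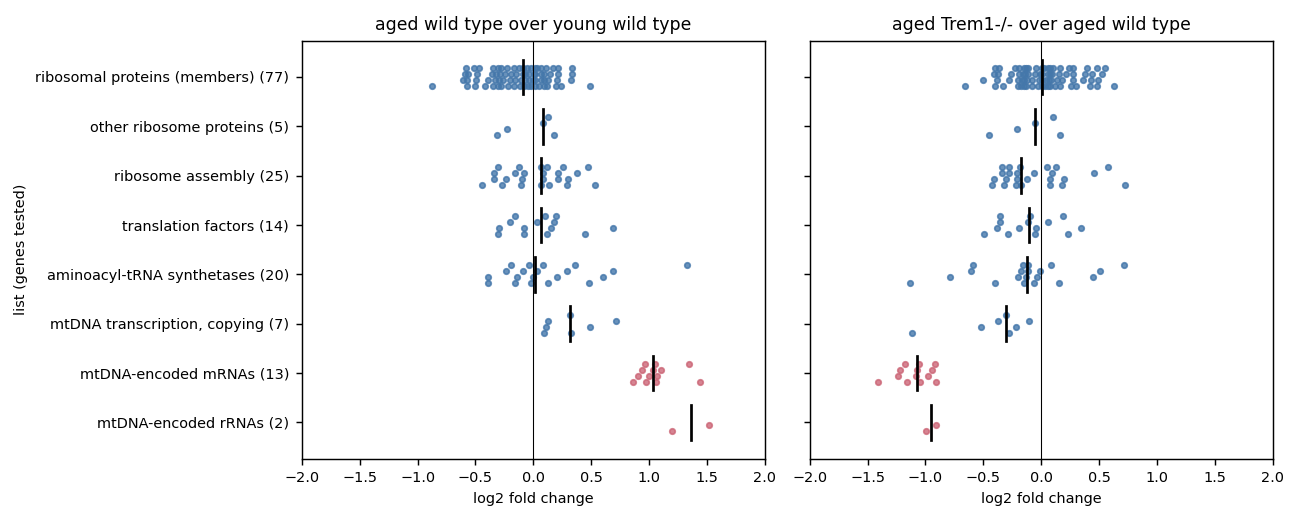
Log2 fold change of each tested gene (points) and list median (bars) for the 77 ribosomal protein genes and 7 lists of the mitochondrial translation pathway, in aged over young wild type (left) and in libraries labelled aged Trem1-/- over aged wild type (right); mitochondrially encoded RNAs are in red. On the left the ribosomal protein genes have a median of -0.09 and the encoded messengers 1.03; the panels share the aged wild-type libraries.

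Genes that share a start region with the set were looked at beside it. Of the 31 neighbours outside the set with a start on the opposite strand within 1 kb, 26 were tested. With age 3 of these were lower (Ncapd2, Ndufb5 and Ndufs6) and 1 was higher (Helq), shares below the background given above for all genes. Ncapd2, a condensin subunit used in mitosis, starts 100 bases from Mrpl51. It had 260, 185, 303 and 440 normalized counts in young, 80.6, 100 and 110 in aged wild type and 148, 133 and 98.7 in libraries labelled Trem1-/- (log2 fold change with age -1.55, SE 0.25, limma adjusted p = 0.000998). The libraries labelled Trem1-/- had log2 fold changes over aged wild type of 0.37 for Ncapd2 (limma adjusted p = 0.353) and 0.49 for Mrpl51 (limma adjusted p = 0.0644), neither past the test. Genes of the set with an ETS core in their window had a median of -0.12 with age (25 genes, 3 called), beside -0.05 for those without (43 genes, 3 called). For the YY1 letters the medians were -0.15 (21 genes, 2 called) and -0.05 (47 genes, 4 called). For the NRF1 core they were 0.06 (7 genes, 1 called) and -0.09 (61 genes, 5 called), and for any of the 3 motifs -0.08 (41 genes, 4 called) and -0.09 (27 genes, 2 called). These differences were not tested and had no common direction.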

How the data were processed

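Gene expression was measured by RNA sequencing of mouse peritoneal macrophages in 10 libraries, grouped by the labels. Per the submitters' processing notes, the tools, run on GRCm38, included STAR, fastp and featureCounts (version 1.5.0-p3), besides DESeq2 (version 1.20.0). Whether counting used strand, and which annotation it used, is not given in the sources used here. The authors deposited normalized counts per library (a signal unit: reads divided by 1 size factor per library). Within a tolerance of 1e-06, 100% of values were whole multiples of what 1 read is worth in that library, so reads were recovered. The authors' deposited comparison of aged with young wild type holds a log2 fold change, a score (the Wald statistic) and p-values. Reads per library were 2663744 to 5603498. A floor of 3 reads equals 1.85 to 3.84 normalized counts and covers counting error only.

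Values were transformed to log2(normalized count + 1) and fitted with the 3 groups in 1 model by limma with a variance trend (version 3.58.1 in R 4.3.3). It covered the 11506 genes with a mean of at least 10, with Benjamini-Hochberg adjustment at 0.05 over all of them in each comparison. Fold changes on this scale understate those of genes with few counts. The alternatives were other pseudocounts, filters and scaling (TMM), the compared groups alone, no variance trend, edgeR 4.0.16 and DESeq2 1.42.0 on the recovered reads, leaving out each library, and leaving out members with overlapped or shared exons. Only the limma fit was tested on simulated data, with changes of at least 2-fold. All calls in the set were smaller than that, so the simulation does not bear on them. The members, gene lists and the rule for named genes were chosen with earlier results of these data known. Named were members that passed the test, the 6 highest and 4 lowest means, members under the filter, members set apart by name or role, and up to 3 called genes of each other list. Others were named after their values were seen. Exon lengths, overlaps and coordinates came from GENCODE M21 (GRCm38), and promoter windows from RefSeq.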

Additional observations from a re-analysis of the deposited data

Results flagged for a closer look

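In the 4 young wild-type libraries, 1 library stood far from the other 3, by Dixon's criterion, for 4 of the 77 tested genes. Mrpl33 was highest in replicate B, at 88.7 normalized counts. Mrps24 was also highest in replicate B, at 99.1, Mrpl46 in replicate C, at 42.0, and Mrps25 in replicate E, at 127.8. Chance flags about 1 in 20 groups. Without the library concerned, Mrpl33 and Mrps25 still passed the test against aged wild type.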

How the results depend on the processing

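Of 1072 values recomputed under the alternatives, 964 kept their direction and side of the threshold, or stayed within the replicate spread. Counts of genes were taken as kept when within 1.5-fold of the reported count. Most of the 1072 belong to genes not called in the reported analysis, which count as kept when they stay uncalled. The share kept is therefore no measure of how stable the calls are. A call was lost in 46 values, 31 of them with age and 15 for libraries labelled Trem1-/- over aged wild type. It was gained in 2, and 19 counts or medians moved beyond these limits. A further 41, log2 fold changes of single genes, changed sign, and in 0 of these did the gene pass in either analysis. The number of genes lower in aged than in young wild type, 7 by limma on all libraries, was 4 with only the groups compared, without the variance trend or with edgeR, 3 with DESeq2, and 3 to 10 when 1 library was left out. With edgeR 1 gene (Mrps9) was higher. The number higher in libraries labelled Trem1-/- than in aged wild type, 2 in the reported analysis, was 1 without overlapped or shared genes (66 left), 0 with a mean of at least 1, with only the groups compared or with DESeq2, and 0 to 4 when 1 library was left out. The median log2 fold change of the set lay between -0.16 and -0.06 with age, -0.05 and 0.07 for libraries labelled Trem1-/- over aged wild type, and -0.15 and -0.06 over young wild type.

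Calls over all genes for libraries labelled Trem1-/- over aged wild type (1327 higher, 785 lower) were 726 and 445 with only the groups compared, and over young wild type (68 and 38) 154 and 145 with only the groups compared, 13 and 11 without the variance trend, and 253 and 195 with DESeq2. Encoded messengers lower in libraries labelled Trem1-/- than in aged wild type ran from 0 (only the groups compared, no variance trend) to 12 (DESeq2). The cause of these differences was not tested. No paired analysis was possible because the replicate labels of the groups compared share fewer than 2 numbers. At a median of 53 reads per gene and library, smaller differences than the intervals given were not detectable.

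The sign changes were as follows, on the log2 scale. With age, TMM scaling gave -0.059 for Mrpl43, -0.020 for Mrps30 and -0.049 for Mrps36. When 1 library was left out, the comparison by age ran from -0.14 to 0.14 for Mrpl43, -0.085 to 0.15 for Mrps30, -0.073 to 0.17 for Mrps36, -0.31 to 0.12 for Mrps11, -0.86 to 0.15 for Mrps34 and -0.31 to 0.018 for Mrps18a. For libraries labelled Trem1-/- over aged wild type it ran from -0.35 to 0.075 for Mrps11, -0.085 to 0.56 for Mrps18c, -0.022 to 0.99 for Mrps34, -0.016 to 0.15 for Mrps30, -0.062 to 0.24 for Mrpl43 and -0.34 to 0.041 for Mrps18a. Over young wild type, Mrps18b had 0.011 with DESeq2 and 0.0075 with edgeR. There, leaving out 1 library gave -0.28 to 0.31 for Mrps18b, -0.068 to 0.25 for Mrpl43, -0.047 to 0.26 for Mrps34, -0.025 to 0.21 for Mrps30, -0.19 to 0.032 for Mrpl58, -0.41 to 0.17 for Mrps18c, -0.13 to 0.037 for Mrps25 and -0.23 to 0.029 for Mrpl30. The cause was not tested.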
